A study of Homo sapiens with 2 samples.

Results

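Immediate early genes are transcribed within minutes of a stimulus, without the need for newly made protein. The 10 genes described here were FOS, FOSB, JUN, JUNB, EGR1, IER2, ARC, NPAS4, NR4A1 and DUSP1. They were taken from a written list of symbols, and all 10 were found among the 61487 genes listed for both libraries.

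Human embryonic stem cells (WA09, also called H9) that carry EGFP at the locus of TPH2, the gene of the neuronal enzyme for serotonin synthesis, were differentiated into serotonin neurons (SNs). Cultures were dissociated with accutase at day 42, EGFP-labelled cells were sorted, and 10x Genomics 3' libraries were made, in which each captured transcript yields 1 tag with a molecular identifier (UMI). There was 1 library of wild-type reporter cells (WT) and 1 of reporter cells with a FOXA2 knockout (FKO). The knockout rests on an indel with a premature stop, and the reporter was placed in 1 such line. Both groups share the reporter, the day and the sort. Purmorphamine, an agonist of hedgehog signalling, was part of the differentiation, and the dose used for each of these libraries is not given in the sources used here. Other cultures of the study had a lower dose for WT than for FKO cells, so genotype and dose cannot be told apart. The library labelled WT held 123064653 UMIs over 11052 barcodes, and that labelled FKO 70588747 UMIs over 8806 barcodes. Filtering kept 5750 cells labelled WT, with a median depth of 12459 UMIs, and 6978 cells labelled FKO, with a median depth of 6927 UMIs. The libraries shared 21 barcode sequences. All cells were dissociated and sorted alike, so transcription during handling and transcription in the culture cannot be told apart.

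Each condition had 1 library, so no test between conditions was possible. Intervals in parentheses are exact 95% intervals and cover counting error only. Levels are pooled CPM, the UMIs of a gene scaled to all UMIs of the kept cells, and were not divided by gene length because a 3' library counts 1 tag per transcript.

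FOXA2 (ENSG00000125798), the targeted gene, had 334 UMIs (4.35 CPM) among kept cells labelled WT and 1265 UMIs (21.8 CPM) among those labelled FKO. This log2 ratio of 2.33 (2.15 to 2.51) went against the label. Tags from the 3' end do not show an indel and so do not check the edit. The other 4 floor plate markers had ratios in both directions, with CORIN at -2.08 (-2.57 to -1.62), SHH at -1.11 (-1.38 to -0.84), SPON1 at 0.00 (-0.09 to 0.09) and NTN1 at 1.21 (1.03 to 1.39). The libraries are called by their labels for this reason, and each direction between them rests on those labels.

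All 9 serotonergic markers had UMIs in both libraries. They summed to 2928 CPM labelled WT against 2466 CPM labelled FKO, with FEV, a transcription factor of serotonin neurons, as the most abundant. FEV had 1584 CPM labelled WT against 908 CPM labelled FKO, and without it the order of the sum turns. TPH2, DDC and MAOB were also lower labelled FKO, while GATA3, GATA2, SLC6A4, SLC18A2 and LMX1B were higher. A TPH2 UMI and a FEV UMI were found together in 4101 kept cells labelled WT and 3592 labelled FKO. Mesenchymal markers were present as well. All 6 had UMIs in both libraries. They summed to 36.5 CPM labelled WT, led by LUM at 12.1 CPM, against 228 CPM labelled FKO, led by COL1A2 at 85.2 CPM. These markers did not move alike. The log2 ratio, labelled FKO over labelled WT, was 5.3 for COL1A1, 4.95 for COL1A2 and 1.76 for COL3A1. It was 4.58 for PDGFRA, from 5 UMIs labelled WT. DCN and LUM stood at 0.39 each, close to the median of all genes compared (0.47). The higher sum labelled FKO thus rests on the collagen genes. Microglial markers summed to 0.0911 and 0.225 CPM, with CSF1R at 0 UMIs in both libraries. Endothelial markers summed to 0.521 and 0.725 CPM, with 1 of 3 genes at 0 in each library.

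Immediate early genes couple signals at the cell surface to transcription. In neurons, calcium entry and growth factors act through kinases on factors that are already present, among them SRF, which binds the CArG box, and CREB, which binds the cAMP response element. Most products are transcription factors that act on a later wave of genes, while others act at synapses or feed back on the signal, and tissue dissociation induces many of the same genes.

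These elements were looked for in RefSeq promoters (GRCh38.p14), which span 250 bases before to 50 after a start, and 11 such promoters of 9 members, all but ARC, were searched. Both strands were read for the cAMP response element TGACGTCA, its core TGACG, which lies inside it, the AP-1 element TGANTCA and the CArG box. Of all 35116 promoters, 1.85% held the full cAMP response element, 24.6% its core, 7.71% the AP-1 element and 1.29% a CArG box. EGR1 held 2 CArG boxes, at -105 and -83 from its start, and was the only one of the 9 members with this element. DUSP1 was the only one of the 9 with a full cAMP response element, at -125. The core was found in 8 of the 9 members, at -64 in FOS and -60 in FOSB, and NR4A1 held none of these letters. None of the 9 held the AP-1 element. A match is a description of sequence, and a missing match says only that the letters are not in the window. The stretches shown carry the elements of EGR1 (chr5:138465354-138465425, plus strand), DUSP1 (chr5:172771293-172771340, minus strand), FOS (chr14:75278744-75278788, plus strand) and FOSB (chr19:45467916-45467960, plus strand). Capitals mark the CArG boxes of EGR1, the full element of DUSP1 and the core in FOS and FOSB.
EGR1: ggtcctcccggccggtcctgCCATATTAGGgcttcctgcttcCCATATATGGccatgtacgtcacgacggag
DUSP1: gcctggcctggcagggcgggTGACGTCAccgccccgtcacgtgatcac
FOS: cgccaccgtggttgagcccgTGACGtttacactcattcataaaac
FOSB: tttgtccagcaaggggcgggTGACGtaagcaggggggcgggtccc

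The members were found in both libraries at low to moderate levels. Summed over the 10 genes, there were 14916 UMIs (194 CPM) labelled WT against 10416 UMIs (180 CPM) labelled FKO. The ratio of FKO over WT had a median of 0.47 on the log2 scale over 9676 genes with at least 10 CPM in either library, and ratios are given relative to that shift. Relative to it, 8 of the members lay below the median gene and 2 (FOSB and NR4A1) above it. Among the 8, NPAS4 lay at -0.10 with an interval that included the median gene. The median over all 10 was -0.63, but relative to genes of at most 10 kb it was 0.01. FOS, JUN, EGR1, IER2 and DUSP1 reached 10 CPM in a library, and of these 5 genes 2 (EGR1 and IER2) were lower by at least 2-fold labelled FKO and 0 were higher. EGR1 reached 10 CPM only labelled WT, where it was high, so this count gives no support to a difference. Among all genes compared, 9.7% were lower and 5.75% higher by that much. Counting also the members under 10 CPM, 3 were lower by 2-fold (with ARC) and 2 were higher (FOSB and NR4A1). The shares above do not cover genes under 10 CPM, and no such share was taken for them. Genes between 1 and 10 CPM had a median log2 ratio of 0.81, and FOSB rests on 1 UMI labelled WT. This wider count thus gives no support to a difference.

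Gene length moved with these ratios. The 1771 genes compared of at most 10 kb had a median of -0.65 relative to all genes, and 27.6% of them were lower by at least 2-fold. All members but NR4A1 (36.7 kb) are that short. Relative to the short genes, a scale chosen after seeing the data, EGR1 stood at -0.56, IER2 at -0.41 and DUSP1 at -0.21, FOS at 0.16 and JUN at 0.55. On that scale 0.992% of all genes were lower and 30.5% higher by 2-fold. The part of gene length in the members' ratios was not tested.

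**Figure D1:**
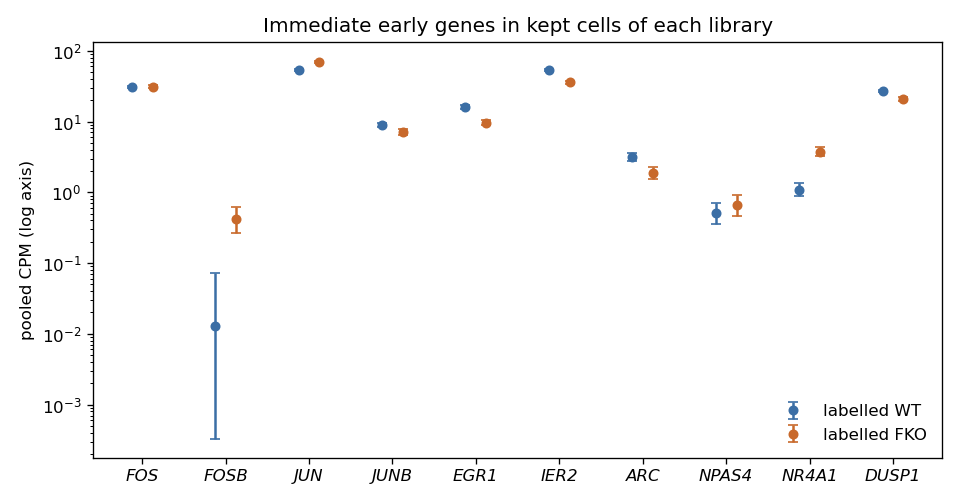
Pooled CPM of each member (y axis, log scale) in the kept cells of each library; points are levels and bars exact Poisson intervals that cover counting error only. JUN and IER2 had the highest levels in both libraries, and FOSB rested on 1 UMI in the library labelled WT.

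FOS, FOSB, JUN and JUNB encode subunits of AP-1, a dimeric transcription factor. FOS (ENSG00000170345) had 2378 UMIs or 31.0 CPM (29.7 to 32.2) labelled WT against 1785 UMIs or 30.8 CPM (29.4 to 32.3) labelled FKO. Counting error did not separate these levels, but it did in cells with a mitochondrial share of 5% or less, where the log2 ratio was 0.49 (0.15 to 0.84). FOS lay at -0.48 (-0.57 to -0.39) relative to the median gene, but at 0.16 relative to genes of at most 10 kb and at 0.01 in those cells. JUN (ENSG00000177606) had the most UMIs of these 4 genes, at 52.8 CPM (51.2 to 54.5) labelled WT against 68.8 CPM (66.7 to 71.0) labelled FKO. Its log2 ratio of 0.38 (0.32 to 0.45) lay at -0.09 (-0.16 to -0.03) relative to the median gene, but at 0.07 with genes of at least 50 CPM and at 0.55 relative to genes of at most 10 kb. In cells with a mitochondrial share of 5% or less JUN lay at -0.70, where its log2 ratio itself turned to -0.22 (-0.40 to -0.04). JUNB (ENSG00000171223) had 8.97 CPM (8.31 to 9.67) labelled WT against 7.22 CPM (6.54 to 7.94) labelled FKO, or -0.79 (-0.97 to -0.61) relative to all genes. Relative to genes of at most 10 kb JUNB lay at -0.14. FOSB (ENSG00000125740) was close to absent, with 1 UMI labelled WT and 24 UMIs labelled FKO. Its log2 ratio of 4.99 (2.38 to 10.35) rests on these counts, and 20.8% of the 24 UMIs came from 1 cell.

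EGR1 encodes a zinc finger transcription factor, and NR4A1 an orphan nuclear receptor. EGR1 (ENSG00000120738) had 1227 UMIs or 16.0 CPM (15.1 to 16.9) labelled WT against 556 UMIs or 9.60 CPM (8.82 to 10.4) labelled FKO. The intervals did not overlap, and EGR1 lay at -1.21 (-1.36 to -1.06) relative to all genes. In the 340 cells labelled WT and 2888 labelled FKO whose mitochondrial share was 5% or less, EGR1 lay at -0.40, and its log2 ratio of 0.07 (-0.46 to 0.65) did not separate the levels. It lay at -0.90 with bins of that share weighted equally. NR4A1 (ENSG00000123358) had the opposite order, with 84 UMIs or 1.09 CPM (0.872 to 1.35) labelled WT against 218 UMIs or 3.76 CPM (3.28 to 4.30) labelled FKO. Its log2 ratio of 1.78 (1.41 to 2.16) was 1.31 relative to all genes. Under other settings it was 2.08 with a mitochondrial share of 5% or less, where the level labelled WT rests on 2 UMIs, 1.87 with bins of that share weighted equally and 0.99 in thinned cells. The 6731 genes between 1 and 10 CPM had a median log2 ratio of 0.81, below the interval of NR4A1.

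NPAS4, a bHLH-PAS factor, and ARC, which acts at synapses, are induced by neuronal activity. NPAS4 (ENSG00000174576) had 39 UMIs (0.508 CPM) labelled WT against 38 UMIs (0.656 CPM) labelled FKO. Its log2 ratio was 0.37 (-0.31 to 1.05), and no difference was detectable at this depth. Relative to all genes NPAS4 lay at -0.10 (-0.79 to 0.58), but at 0.40 in thinned cells. It lay at 0.54 relative to genes of at most 10 kb, so its side of the median gene was not settled. ARC (ENSG00000198576) had 241 UMIs or 3.14 CPM (2.75 to 3.56) labelled WT against 110 UMIs or 1.90 CPM (1.56 to 2.29) labelled FKO. These intervals did not overlap, and ARC lay at -1.20 (-1.54 to -0.87) relative to all genes. Relative to genes of at most 10 kb it lay at -0.55, which is within 2-fold.

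DUSP1 encodes a phosphatase that acts on MAP kinases, and IER2 a nuclear protein. DUSP1 (ENSG00000120129) had 2069 UMIs or 26.9 CPM (25.8 to 28.1) labelled WT against 1201 UMIs or 20.7 CPM (19.6 to 22.0) labelled FKO, or -0.85 (-0.96 to -0.75) relative to all genes. IER2 (ENSG00000160888) had 4130 UMIs or 53.8 CPM (52.1 to 55.4) labelled WT against 2080 UMIs or 35.9 CPM (34.4 to 37.5) labelled FKO. It lay at -1.06 (-1.13 to -0.98) relative to all genes, at -0.94 with bins of the mitochondrial share weighted equally and at -0.90 with genes of at least 50 CPM. Neither pair of levels overlapped.

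**Figure D2:**
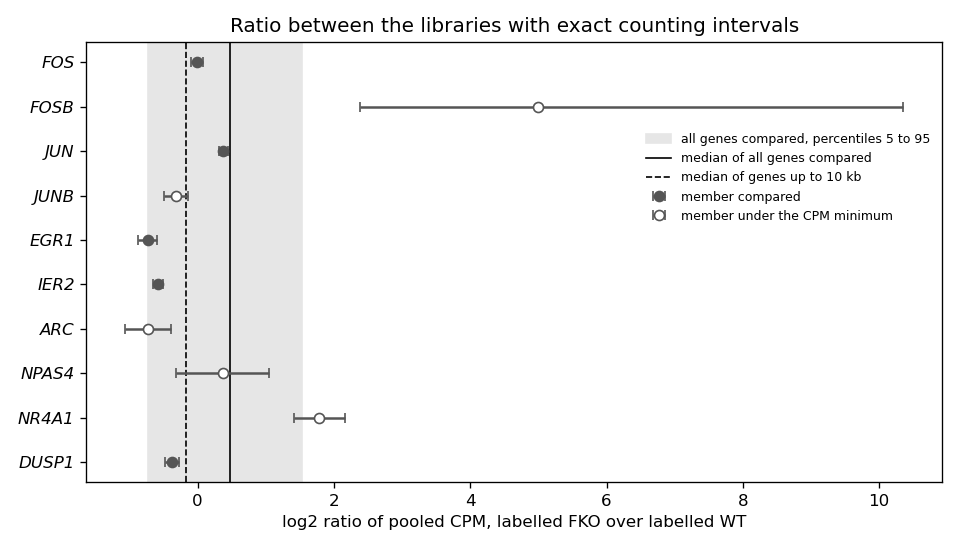
Log2 ratio of pooled CPM, labelled FKO over labelled WT (x axis), of each member with exact counting intervals; filled points reached 10 CPM in a library. The band spans percentiles 5 to 95 of all genes compared (-0.73 to 1.53), and lines mark the median of all genes (0.47) and of genes up to 10 kb (-0.17), so that FOS and JUN lie below the first line and above the second.

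Cells with a TPH2 UMI and a FEV UMI were also compared on their own, where the median of all genes was again 0.47. Relative to it, EGR1 stood at -1.49, IER2 at -1.07 and JUNB at -1.04. DUSP1 stood at -0.81, FOS at -0.43 and JUN at -0.14. NR4A1 stood at 0.99, with a log2 ratio of 1.46 (0.98 to 1.96). ARC stood at -1.21 and NPAS4 at -0.57. These 9 genes lay on the same side of the median gene as over all kept cells. The cells compared here are part of the kept cells, so this is no separate support. The log2 ratio of NPAS4 was -0.09 (-0.98 to 0.76), an interval that included the median gene. FOSB, the member not named here, had 1 UMI labelled WT and 13 UMIs labelled FKO in these cells.

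Most cells held no UMI of most members. IER2 was detected in 39.7% (38.4% to 41.0%) of cells labelled WT against 21.8% (20.8% to 22.7%) labelled FKO. Thinning every cell to 2000 UMIs, to set depth equal, left out 43 cells labelled WT and 116 labelled FKO. IER2 was then detected in 9.83% (9.07% to 10.6%) labelled WT against 5.93% (5.38% to 6.52%) labelled FKO, the order of its CPM. FOS had shares of 25.3% and 17.9% at full depth, but of 5.06% (4.51% to 5.67%) and 4.97% (4.47% to 5.51%) after thinning, which overlap. JUN turned its order, from 30.7% labelled WT and 27.4% labelled FKO to 9.27% and 11.2%. EGR1 went from 14.7% and 6.23% to 2.72% and 1.82%. NR4A1 was detected in 0.280% of thinned cells labelled WT against 0.772% labelled FKO. No cell type that should lack these genes could be named, so the share of cells that free RNA gives was not measured.

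JUN was spread less evenly over cells than DUSP1 in both libraries. It reached 26 UMIs in 1 cell labelled WT and 21 in 1 cell labelled FKO. Cells with at least 5 JUN UMIs numbered 193 labelled WT and 142 labelled FKO, and held 31.5% and 23.4% of its UMIs. In thinned cells the variance of JUN over its mean was 1.47 labelled WT and 1.40 labelled FKO. For DUSP1 the same ratio was 1.01 and 1.04, where counts spread evenly over cells give 1. Most JUN UMIs lay in cells with fewer than 5 of them.

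The number of members found in a cell depended on depth. At least 3 members were detected in 38 of 5707 thinned cells labelled WT, or 0.666% (0.472% to 0.913%). Labelled FKO there were 27 of 6862, or 0.394% (0.260% to 0.572%), and these intervals overlap. At full depth the shares were 22.1% labelled WT against 8.84% labelled FKO, in cells of unequal depth. No member was detected in 70.5% of thinned cells labelled WT and 73.3% labelled FKO, against 23.5% and 39.6% at full depth.

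Pairs were formed among FOS, JUN, JUNB, EGR1, IER2 and DUSP1, the 6 members in at least 1% of thinned cells of both libraries. For each pair, the cells with both genes were divided by the number that the product of their shares gives. Over 15 pairs the median was 1.27 labelled WT and 1.23 labelled FKO, with 10 and 11 pairs above 1. FOS and EGR1 were detected together in 17 cells labelled WT where the product gave 7.85, a ratio of 2.17 (1.26 to 3.47). Labelled FKO this pair stood at 1.77 (0.884 to 3.17). FOS and IER2 stood at 1.90 (1.43 to 2.48) labelled WT against 1.29 (0.840 to 1.88) labelled FKO. FOS and JUN, whose products dimerise, stood at 0.896 (0.574 to 1.33) labelled WT against 0.996 (0.705 to 1.37) labelled FKO. Joint detection of FOS and JUN was thus not separable from the product of their shares. The interval lay above 1 for 4 pairs labelled WT, FOS with EGR1 and with IER2, EGR1 with IER2 and JUN with DUSP1. Labelled FKO it did so for 1 pair, JUN with DUSP1 at 1.53 (1.14 to 2.02). When these 6 members were paired with each other gene in at least 1% of thinned cells, the interval lay above 1 for 1.54% of 60744 pairs labelled WT and 2.01% of 68058 pairs labelled FKO.

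The ratio of each member with all other genes gave the background. FOS with 10124 other genes labelled WT had a median of 0.996, and its ratio with EGR1 lay above percentile 99 of these genes (1.93). Percentile 99 of EGR1 with the same genes was 2.38, above that ratio. Percentile 99 of IER2 was 1.64, below its ratios with FOS and with EGR1, which lay below the marks of FOS and of EGR1. JUN with DUSP1 lay below the marks of both its genes (1.69 and 1.87). None of these 4 pairs labelled WT was thus past percentile 99 for both of its genes. The other genes were not matched to the members by share of cells. These marks therefore include ratios that rest on few joint cells, and missing a mark does not decide whether a pair stands out. Labelled FKO, percentile 99 of FOS was 1.89, above its ratio with each member. JUN with DUSP1 labelled FKO lay below the marks of both its genes as well (1.62 and 1.86). Taken within clusters of cells labelled WT, the ratio of FOS and EGR1 was 1.63 and that of FOS and IER2 was 1.55. EGR1 and IER2 stood at 1.43 and JUN and DUSP1 at 1.47, so that 3 of these 4 pairs were lower within clusters than over all cells and JUN with DUSP1 was not. The median of the 15 pairs was 1.26 within clusters labelled WT. Labelled FKO, JUN and DUSP1 stood at 1.53 within clusters as well, and the median was 1.14. The pairs share members, and the cells of a library share its preparation.

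**Figure D3:**
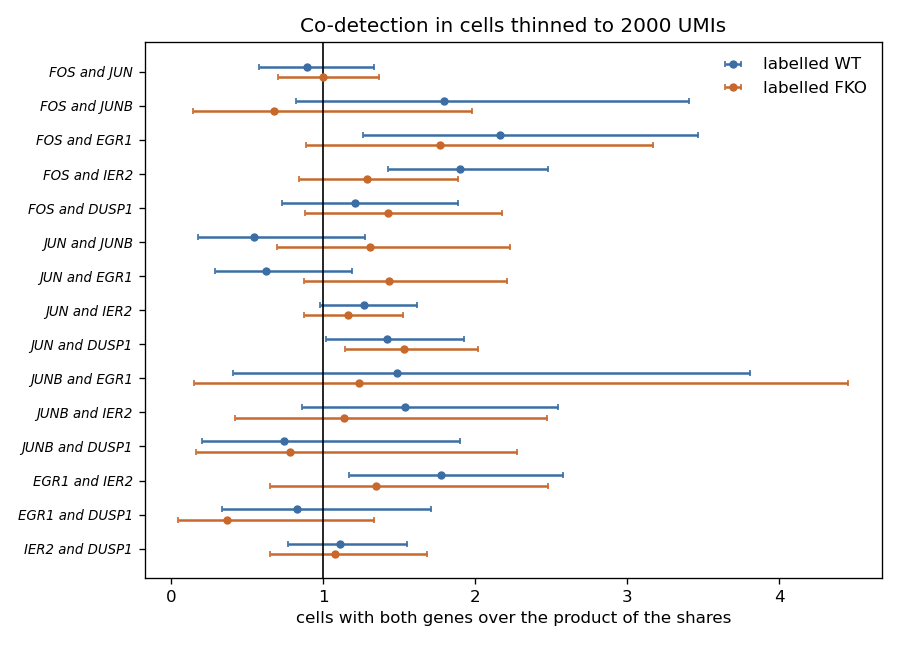
Cells with a UMI of both genes over the number from the product of their shares (x axis), for 15 pairs of members in cells thinned to 2000 UMIs; points are ratios and bars Poisson intervals of the joint cells. The line marks 1, and FOS with EGR1 labelled WT had the highest ratio (2.17).

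Genes most like the members were ranked, among 9928 genes, by the correlation over thinned cells between their detection and the number of members detected, taking the lower of both libraries. JUND, another AP-1 gene, ranked first, with r of 0.087 over 5707 cells labelled WT and 0.075 over 6862 cells labelled FKO. CLIC1, CREB5, LGALS3, MIR4435-2HG, SCG2, LINC00491, VGF, NEAT1 and TIMP1 followed. VGF and SCG2, which encode secreted granule proteins, had r of 0.099 and 0.085 labelled WT, but 0.039 and 0.042 labelled FKO. Correlations this weak in sparse counts are a description only.

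The mitochondrial share of UMIs is often high in damaged cells, and the members were followed over it. Levels were taken as CPM of non-mitochondrial UMIs, so that the share itself did not enter. Barcodes with 10% to 20% mitochondrial UMIs, 2498 labelled WT and 730 labelled FKO, were set against those with at most 10%. The median relative to all genes was 0.10 over the 9 members with a ratio labelled WT, and 0.41 over 10 members labelled FKO. Labelled WT, 6 members reached 10 CPM, and 0 were higher and 0 lower by at least 2-fold. Of 8640 genes, 0.0347% were higher and 0.0579% lower. Labelled FKO, 7 members reached it, and 1 (NR4A1) was higher and 0 were lower. Of 10472 genes, 3.56% were higher and 0.85% lower. NR4A1, like JUNB in both libraries, reached 10 CPM only in the barcodes where it was high, so this count gives no support to a difference. Counting all members labelled FKO, NPAS4 was past 2-fold as well, at 1.13 (-0.82 to 2.60) from 4 UMIs.

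NR4A1 had 218 UMIs (3.98 CPM) labelled FKO up to 10% and 40 UMIs (15.8 CPM) from 10% to 20%, or 1.93 (1.40 to 2.42) relative to all genes. By bin it stood at 3.37 CPM up to 5%, 3.69 CPM to 7.5%, 8.15 CPM to 10%, 15.4 CPM to 15% and 17.2 CPM to 20%, the last from 10 UMIs. Above 20% it had 1 UMI. Labelled WT, NR4A1 stood at 0.31 (-0.32 to 0.91), but at -0.76 with barcodes thinned to 2000 non-mitochondrial UMIs, and its highest bin had 1.54 CPM from 4 UMIs. NR4A1 was thus higher towards a share of 20% in cells labelled FKO, and whether the libraries differ in this was not tested.

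EGR1 labelled FKO stood at 10.1 CPM up to 10% and at 20.5 CPM from 10% to 20%, or 0.96 (0.52 to 1.37) relative to all genes. This came from the bin up to 15% (23.6 CPM), since the next bin had 10.3 CPM from 6 UMIs, and with barcodes thinned to 2000 non-mitochondrial UMIs it was 0.49. Labelled WT, EGR1 stood at -0.16 (-0.34 to 0.01). IER2 stood at 0.01 (-0.08 to 0.10) labelled WT against 0.43 (0.17 to 0.68) labelled FKO. JUN labelled WT was higher from 10% to 20%, at 0.58 (0.50 to 0.66), and FOS was lower, at -0.40 (-0.54 to -0.27). Neither gene followed a steady course over the bins. JUN had 87.5 CPM up to 5%, 50.3 CPM to 7.5% and 87.8 CPM from 10% to 15%. FOS had 22.9 CPM up to 5%, 36.3 CPM to 7.5%, 25.8 CPM from 10% to 15% and 33.4 CPM above 20%. DUSP1 stood at 0.15 (0.03 to 0.27) labelled WT against -0.69 (-1.21 to -0.21) labelled FKO. The value labelled WT came from the bin up to 15% (33.6 CPM), since DUSP1 had 29.2 CPM up to 10%, 23.4 CPM from 15% to 20% and 19.3 CPM above 20%.

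Depth and markers moved over these barcodes too. Labelled FKO, the median depth was 6927 UMIs up to 10% against 3076 UMIs from 10% to 20%, and the 9 serotonergic markers summed to 2605 against 1714 CPM. Labelled WT, these were 12459 against 10307.5 UMIs, and 3170 against 3487 CPM. The 6 mesenchymal markers summed to 241 against 182.5 CPM labelled FKO. Their part in the members' levels was not tested. In thinned kept cells the rank correlation of the mitochondrial share with the number of members was 0.00 over 5707 cells labelled WT and -0.01 over 6862 cells labelled FKO, a description of cells from 1 library each.

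**Figure D4:**
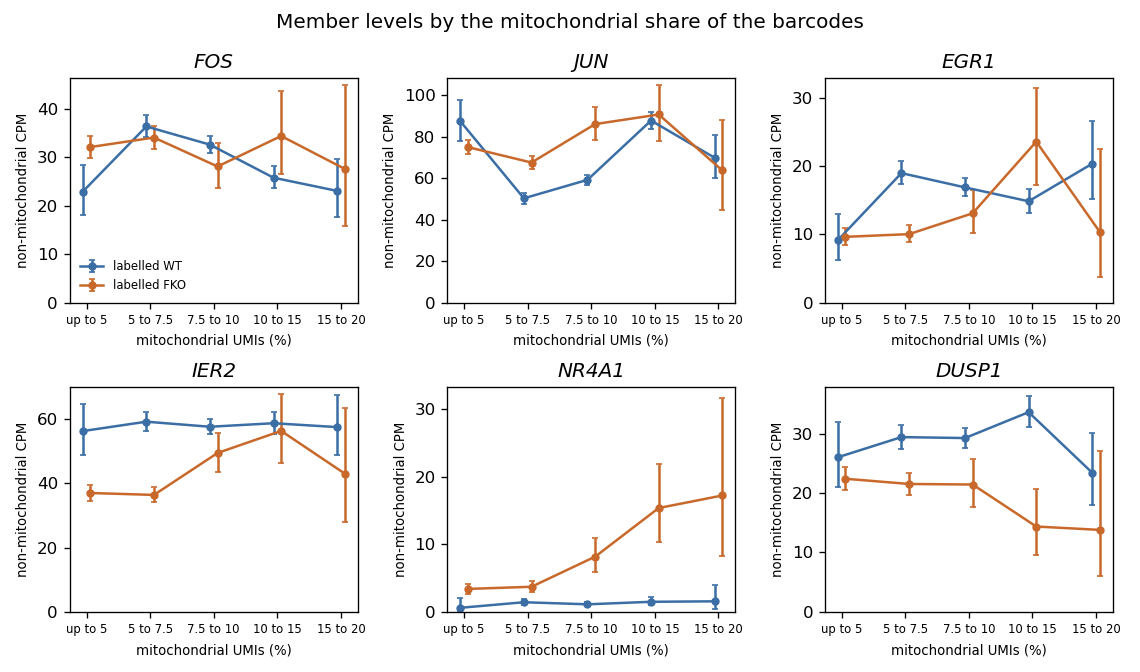
CPM of non-mitochondrial UMIs (y axis) of 6 members in bins of the mitochondrial share of barcodes (x axis, percent of UMIs), with Poisson intervals as bars, for each library. NR4A1 labelled FKO stood at 3.37 CPM in the lowest bin and at 17.2 CPM from 15% to 20%.

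Cells of each library were clustered on its own, without the members and related genes among the features, and clusters are given by number and leading genes. Labelled WT, the summed level of the members ran from 140 CPM (135.5 to 145) in cluster 1 (CALB1, SOX2) to 249 CPM (243 to 256) in cluster 2 (STC1, GAL). FOS was highest in cluster 2 at 52.3 CPM (49.3 to 55.4), as was EGR1 at 31.8 CPM (29.4 to 34.2). JUN was highest in cluster 3 (SLC17A8, COL5A2) at 104.5 CPM (99.1 to 110), against 36.4 CPM in cluster 2. The highest pooled levels of FOS and JUN thus lay in different clusters, which does not show that single cells hold only 1 of them. The intervals of cluster 8, which had 67 cells, overlapped those of the highest clusters for FOS, JUN and the sum. For FOS, the interval of cluster 7 (31.0 to 49.3) also reached that of cluster 2.

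Labelled FKO, the summed level ran from 142 CPM (134.5 to 151) in cluster 2 (SOX2, CALB1) to 352 CPM (316 to 391) in cluster 10 (OLFML2A, APLNR). FOS was highest in cluster 5 (STC1, CRHBP) at 56.1 CPM (51.2 to 61.3), where JUN was lowest at 47.5 CPM (43.0 to 52.4). The cluster led by STC1 thus had the highest FOS level in both libraries. JUN was highest in cluster 8 (PHGDH, CDKN1A) at 168 CPM (146 to 192), in cells with a median of 3143 UMIs. NR4A1 was highest in cluster 10 at 34.9 CPM (24.2 to 48.8), whose median mitochondrial share of 8.15% was the highest of these clusters, against 5.33% over all kept cells. The part of this share in the NR4A1 level was not tested. EGR1 was highest in cluster 11 (MGP, COL1A1) at 68.8 CPM from 44 UMIs, where DUSP1 had 1 UMI. Counting error did not separate the summed level in cluster 10 from those in clusters 8 and 11. The same held for FOS in clusters 5 and 8 and for JUN in clusters 8 and 10. Clusters were built for 1 library each and may reflect that library.

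Cells with at least 2 UMIs of COL1A1, COL1A2 or COL3A1 were looked at because these genes differ between the libraries. In 246 such cells labelled FKO, EGR1 had 32.4 CPM (26.4 to 39.4) and NR4A1 had 15.2 CPM (11.2 to 20.2). The 3592 cells of that library with TPH2 and FEV UMIs had 8.65 CPM (7.69 to 9.69) of EGR1 and 2.85 CPM (2.31 to 3.48) of NR4A1. In 104 collagen cells labelled WT, EGR1 had 6.92 CPM (3.88 to 11.4), below the 17.5 CPM (16.4 to 18.6) in cells with TPH2 and FEV. A cutoff of 2 UMIs depends on depth. Collagen cells had a median of 20138.5 UMIs labelled WT, against 12885 UMIs in cells with TPH2 and FEV. Labelled FKO the medians were 9788 and 7525.5 UMIs. The collagen cells lay in clusters with different leading genes. Labelled WT, 60 of 104 were in cluster 6 (SULF1, TFF3). Its leading genes included the mesenchymal markers DCN and LUM, but also TTR and the floor plate markers SHH and SPON1. Labelled FKO, 84 of 246 were in cluster 10 (OLFML2A, APLNR), 68 in cluster 11 (MGP, COL1A1) and 52 in cluster 9 (MKI67, TOP2A). Their EGR1 levels are therefore given for each library on its own.

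**Figure D5:**
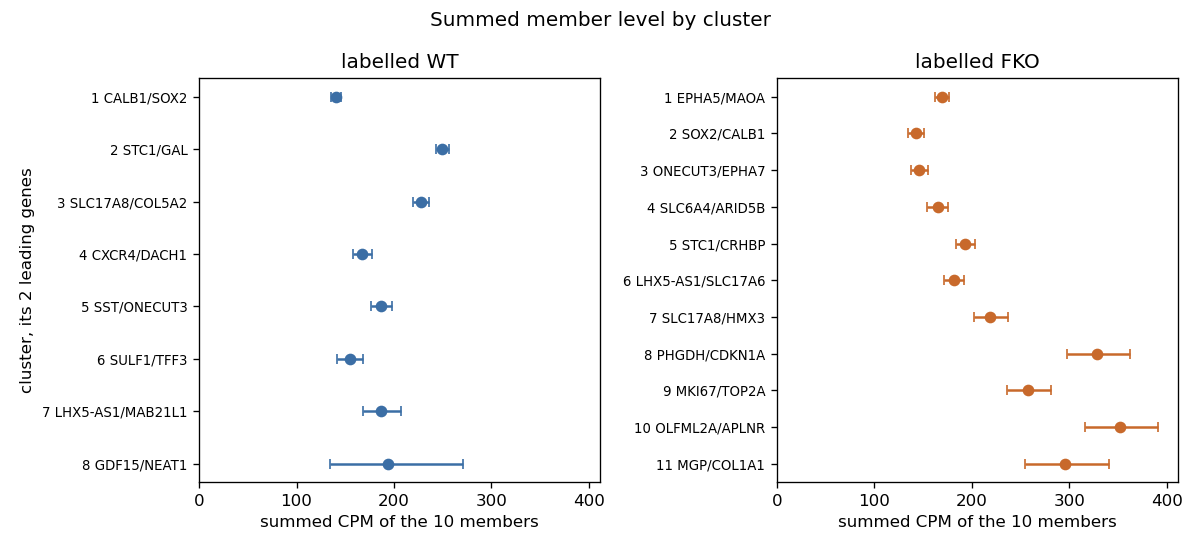
Summed CPM of the 10 members (x axis) in each cluster (y axis, number and 2 leading genes) of each library; points are levels and bars Poisson intervals. Cluster 2 was highest in cells labelled WT (249 CPM) and cluster 10 in cells labelled FKO (352 CPM). Their intervals overlapped that of cluster 8 labelled WT and those of clusters 8 and 11 labelled FKO.

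Related genes are given by counts and medians relative to the median gene and, because ratios moved with gene length, relative to genes of at most 10 kb. Of 28 other immediate early genes 9 were compared, with a median of -0.24, which was 0.41 relative to short genes (7 of the 9 are that short), and 1 was lower by at least 2-fold. This was SGK1, a kinase, at -1.19. JUND stood at -0.79, CCN2 at -0.06 and KLF6, a zinc finger factor, at 0.35. Of 14 delayed activity-regulated genes 7 were compared, with a median of -0.55, which was 0.10 relative to short genes (4 of the 7 are that short), and VGF alone was past 2-fold at -1.15. SCG2 stood at -0.80, while HOMER1, a scaffold protein of the postsynapse, stood at 0.88 and SYT4, a synaptotagmin, at 0.53.

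Of 16 factors that act upstream of the members 11 were compared, with a median of 0.46, which was 1.10 relative to short genes. Of these, 10 lay above the median gene, 1 was higher by at least 2-fold and 0 were lower. None of these 11 genes is as short as 10 kb, and the part of length in their ratios was not tested. CREBBP, an acetyltransferase that binds CREB, stood at 1.02 and MEF2D at 0.76. MEF2C stood at 0.12 and ATF1 at -0.37. Of 16 genes of the MAP kinase cascade 15 were compared, with a median of 0.24, which was 0.88 relative to short genes (2 of the 15 are that short). By at least 2-fold, 1 was lower and 0 were higher. RPS6KA3 stood at 0.91 and BRAF at 0.71, against -0.94 for MAP2K2 and -1.03 for MAPK3. The kinases thus lay on both sides of the median gene.

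Stress genes were listed because dissociation can induce them. Of 10 heat shock genes 7 were compared, with a median of -0.66, which was -0.01 relative to short genes (3 of the 7 are that short). The chaperone genes DNAJB1 and HSPH1 stood at 0.14 and 0.06, against -0.89 for HSPB1 and -1.03 for HSPA8. Of 6 genes of the integrated stress response 5 were compared, with a median of -0.14, which was 0.50 relative to short genes (3 of the 5 are that short). SESN2 stood at 0.64 and ATF4, its central transcription factor, at -0.12, against -0.18 for CHAC1 and -0.86 for DDIT3.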

How the data were processed

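The deposited values are UMI counts that the authors made with Cell Ranger, version 7.0 in the submitters' processing notes and 7.1.0 in the file header. Barcodes were required to have 1000 UMIs, 500 genes and no more than 10% mitochondrial UMIs. Doublets were scored with Scrublet (scanpy 1.11.5), and the top scores of each library were left out at 0.8% per 1000 barcodes. Ratios carry exact conditional intervals, levels Poisson and shares Clopper-Pearson intervals. In ratios of all genes a count of 0 was set to 3. Clusters came from Leiden in igraph 0.11.9 on 2000 variable genes, 30 components and 15 neighbours at resolution 0.4, and those under 50 cells were left out. Gene lengths came from GENCODE 29 and matched 99.5% of the genes compared. The procedures were tested on simulated data. All members were named, with the 2 highest and 2 lowest ratios of each other list and the 10 genes most like the members. Collagen cells, single clusters and the markers named for label checks were picked with their values in view. Members and lists were chosen with earlier results of these data known.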

Additional observations from a re-analysis of the deposited data

Results flagged for a closer look

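DUSP1 had values of opposite sign in the libraries when barcodes with 10% to 20% mitochondrial UMIs were set against those with at most 10%. Relative to all genes, it stood at 0.15 (0.03 to 0.27) on the log2 scale labelled WT, and at -0.69 (-1.21 to -0.21) labelled FKO, from 36 UMIs in the barcodes with the higher share. The sign labelled WT rests on the bin from 10% to 15%, with 33.6 CPM. From 15% to 20% DUSP1 had 23.4 CPM, below the 29.2 CPM up to 10%. Labelled FKO it had 14.3 CPM and 13.8 CPM in these bins, against 21.9 CPM up to 10%. The difference between the libraries was not tested.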

How the results depend on the processing

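Of 57 values from other settings that answer a comparison, 45 stayed within the counting interval of the value reported or, for counts, within 1.5 times, 11 moved and 1 changed sign. Of 163 values of single members, 128 stayed so and 31 moved. The other 4 changed sign where the counting interval of the value reported did not include 0. Changes of sign from an interval that included 0 were counted among the 128 or the 31. They include NPAS4 between the libraries in several settings, and NR4A1 labelled WT over the mitochondrial share in thinned barcodes. The median over the members (-0.63) was -0.47 with genes of at least 50 CPM and -0.79 in thinned cells, where FOSB gave no value. Relative to genes up to 10 kb, a scale chosen after seeing the data, it was 0.01, with FOS at 0.16 and JUN at 0.55. FOS stood at 0.01 with at most 5% mitochondrial UMIs, where FOSB gave no value, and JUN at 0.07 with genes of at least 50 CPM. With at most 5% mitochondrial UMIs, 1 of 4 members compared was lower by 2-fold, as were 14.4% of all genes. Members lower by 2-fold numbered 0 with mitochondrial bins weighted equally, where 9.80% of all genes were lower. They numbered 0 with genes of at least 50 CPM, which left 2 members, where 9.66% of genes were lower. Relative to short genes they numbered 0 as well, where 0.992% of all genes were lower. Cells with at least 3 members made up 0.139% labelled WT and 0.115% labelled FKO when thinned to 1000 UMIs, and 4.51% and 2.92% at 5000 UMIs, where each cell shows more genes. They made up 0.252% of cells labelled FKO with TPH2 and FEV UMIs. The cause of the other changes was not tested. Co-detection medians lay between 1.21 and 1.35 labelled WT and between 1.07 and 1.23 labelled FKO. No paired analysis was possible because the groups share only replicate number 1. Depth limits FOSB, NPAS4, NR4A1 and ARC most.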

Other observations

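The paralogs of NR4A1, picked with their values in view, had the same order between the libraries. NR4A2 had 33 UMIs (0.430 CPM) labelled WT against 272 UMIs (4.70 CPM) labelled FKO, a log2 ratio of 3.45 (2.93 to 4.02). NR4A3 had 74 UMIs (0.963 CPM) labelled WT against 169 UMIs (2.92 CPM) labelled FKO, a log2 ratio of 1.60 (1.20 to 2.01). Relative to the median gene, NR4A2 stood at 2.98 and NR4A3 at 1.12, against 1.31 for NR4A1. Genes between 1 and 10 CPM had a median log2 ratio of 0.81. All 3 genes of this nuclear receptor family were higher in the library labelled FKO, each at under 10 CPM. As the paralogs were picked with their values in view, their shared order gives no support to a difference.

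Above 20% mitochondrial UMIs, the summed CPM of the members was 165 (153 to 177) in 1391 barcodes labelled WT and 116 (85.6 to 153) in 260 barcodes labelled FKO, against 210.2 and 190.0 up to 10%. EGR1 labelled WT had a higher level there, at 28.4 CPM (23.7 to 33.9) above 20% against 17.3 CPM up to 10%.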
